A study of Mus musculus with 18 samples.

Results

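Definitive gut endoderm is the epithelium that lines the gut tube of the embryo, and its cells were taken here as 1787 barcodes of single-cell RNA libraries from E8.5 mouse embryos, among 105556 barcodes with 3000 or more mouse UMIs. A barcode was a member when it held at least 1 UMI each of Foxa1, Foxa2 and Epcam, no UMI of Noto or T, and less than 2% of its UMIs in Apoa1, Apob, Afp, Ttr and Rbp4 together. The measured levels of these 10 genes therefore chose the members, and they are given as a description with no test. Wildtype (WT) embryos gave 670 members, Dnmt1 KO 59, Dnmt3a KO 447 and the libraries labelled Dnmt3b KO 611. Of the 2997 barcodes with all 3 endoderm markers, 789 were left out for a UMI of Noto or T, which mark the notochord and the streak, and 435 for yolk sac transcripts, with 14 left out on both counts.

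The series holds 18 libraries, each made with the 10x 3′ chemistry from 1 embryo of the 129S4/SvJae background at E8.5, the onset of organogenesis. The WT group had 7 libraries, Dnmt1 KO had 3, and Dnmt3a KO and Dnmt3b KO had 4 each. The comparisons ask how the transcripts of the gut epithelium differed in embryos that lacked each DNA methyltransferase. From cell type proportions the authors inferred a minor developmental delay of Dnmt1 KO embryos, in a set that included embryos of another study. In that group the loss of the enzyme and a younger stage therefore cannot be told apart here. The KO embryos carried constitutive null alleles in every cell, the placental and yolk sac lineages included, and the WT embryos came from the same kind of heterozygous crosses. Genotypes came from PCR on the ecto-placental cone, so a library's label rests on that tissue and not on the profiled cells. Dnmt3b KO 1 and 2 shared 12249 cell barcodes (86.5% and 79.3% of each), while the other pairs among the 153 had at most 133 in common. Members found under the same barcode in both correlated at a median of 0.293 in expression, against -0.0059 for different barcodes, and 46 members occurred in both. These 2 libraries were counted as 1, here called Dnmt3b KO 1+2, which left 1741 distinct members and 17 libraries.

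DNMT1 copies CpG methylation onto new DNA strands at replication, while DNMT3A and DNMT3B set it de novo. In somatic lineages promoter methylation keeps a set of germline genes silent, and at imprinted loci it marks the parental allele that is to be silent or active. The gut endoderm folds into a foregut, which gives rise to thyroid, lung, liver and pancreas, and a hindgut, which gives rise to the posterior intestine, and along this axis its cells are told apart by transcription factors such as Nkx2-1, Sox2 and Pax9 at the front and the Cdx and posterior Hox genes at the back. Yolk sac endoderm is the other endoderm of the conceptus, an absorptive and secretory epithelium that makes apolipoproteins and serum proteins.

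In WT embryos the members carried the transcripts of gut epithelium beyond those that chose them. Of 10 further gut markers 9 were higher in the members than in all other barcodes of the same library in every WT library, the exception being Cer1, and so were 9 of 12 endoderm transcription factors, 17 of 20 epithelial genes and 9 of 15 foregut genes. In CPM, a gene's UMIs scaled to a common library total, the carboxypeptidase Cpm was at a lowest of 105, a median of 157 and a highest of 184 in the members of the 7 WT libraries, against a median of 9.27 in the other barcodes. The tight junction gene Cldn4 was at 15.4, 27.2 and 45.4 CPM against 3.1. Among foregut factors, Pax9 was at 19.7, 42.4 and 69.9 CPM against 2.09 and Hhex, which marks the liver and thyroid primordia, at 27.4, 62.5 and 149 CPM against 10.1. The hindgut list behaved otherwise, since 0 of its 16 genes were above the other barcodes in every WT library, and Cdx1 was at 4.69, 4.86 and 10.1 CPM in the members against 46.5 elsewhere. The Cdx and Hox genes are also used by posterior mesoderm and spinal cord, which are among those other barcodes. The label thus held by its markers in WT, with a population weighted to the foregut. The rule's own genes were at medians of 84.3 CPM for Foxa1, 75.2 CPM for Foxa2 and 700 CPM for Epcam in WT members, against 2.5, 10.6 and 116 CPM elsewhere. In the 3 Dnmt1 KO libraries the members held 23.5 to 32.9 CPM of Foxa1 and 32.9 to 51.8 CPM of Foxa2, below the WT ranges, and 398, 527 and 559 CPM of Epcam (lowest, median, highest), of which 2 lay within the WT range of 450.3 to 941 CPM. Of the 5 yolk sac genes, Afp was at 290 to 962 CPM in Dnmt1 KO members against 21.1 to 122 CPM in WT. Apob was at 191 to 896 against 11.7 to 149 CPM. Apoa1 was at 316 to 1951 against 12.5 to 514 CPM and Ttr at 1126 to 4081 against 354 to 1867 CPM. Rbp4 was at 348 to 3965 against 117 to 1077 CPM, and the groups overlapped for these last 3 genes.

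As a measure of free RNA, marker UMIs were counted in 7622 erythroid barcodes, which should lack all 3 markers. Dnmt1 KO libraries held only 3, 1 and 3 of these barcodes, so that the background was not measured there. Over all libraries 6.14% held a UMI of Epcam, 0.446% of Foxa1 and 0.840% of Foxa2, against 36.0%, 5.38% and 13.2% of all barcodes. None of the erythroid barcodes held all 3, which allows a share of up to 0.0394%.

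The yolk sac threshold cut the Dnmt1 KO members differently from the others, which bears on the comparisons given further on. Members just inside it, with 1 to 2% of UMIs in the 5 yolk sac genes, were 23 of the 670 WT members and 16 of the 59 of Dnmt1 KO. They were 9 of 447 for Dnmt3a KO and 31 of 611 for Dnmt3b KO, where barcodes shared by libraries 1 and 2 enter from each. Barcodes just outside, at 2 to 3%, were 64, 37, 41 and 26 in the same order. In Dnmt1 KO the barcodes near the threshold came from embryos 1 and 2, with 4, 11 and 1 inside and 21, 16 and 0 outside in embryos 1, 2 and 3. Members under 0.5% were 620 in WT and 40 in Dnmt1 KO, of which 8, 14 and 18 lay in the 3 embryos. For most lists the Dnmt1 KO calls are therefore given also for those members alone, with all 3 embryos kept, a choice made after the data were seen.

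Dnmt1 KO members were few, with 12, 27 and 20 in the 3 embryos, against 23 to 159 in the WT embryos. Their median UMIs by library were 55502 to 75884, against 24770 to 60828 for WT, 26582 to 38604 for Dnmt3a KO and 17303 to 32222 for Dnmt3b KO. The summed UMIs of the members were 1064787 to 6210904 per library. Mitochondrial transcripts took 6.35%, 5.58% and 4.13% of the UMIs in Dnmt1 KO members, against 2.72 to 3.13% in WT. Y-linked transcripts were at 94.1 to 130.4 CPM in all Dnmt1 KO libraries and in 1 WT library and at 0 in the other 6 WT libraries. They were also present in all 4 Dnmt3a KO libraries and in Dnmt3b KO 1+2 and 11, at 104 to 122 CPM, and at 0 in Dnmt3b KO 12. Sex was thus nearly confounded with the Dnmt1 KO and Dnmt3a KO groups and unevenly divided for Dnmt3b KO, and its part in the results can be followed only through a fit with Y-linked level as a covariate.

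The share of barcodes that were gut endoderm had a negative difference from WT in Dnmt1 KO that did not pass the adjusted test at any depth tried. Since a rule of 1 UMI depends on depth, each barcode was thinned to 3000 UMIs before the rule was applied. The share also depends on the levels of the rule's own genes. Foxa1 was lower in Dnmt1 KO members, but it chose them, so its level is a description only. The yolk sac limit left out 46 of 140 barcodes with all 3 markers in Dnmt1 KO and 240 of 1261 in WT. The test therefore cannot tell fewer gut cells from changed levels of these genes. The share was then 0% at the lowest, 0.0952% at the median and 0.379% at the highest in WT, and 0%, 0.0321% and 0.0409% in Dnmt1 KO, where the 0 of 1515 barcodes of embryo 1 allow up to 0.198%. The groups overlapped, and the mean difference of -1.83 on the log2 scale (0.01% added) had p = 0.15 in an exact two-sided permutation test over libraries and p = 0.45 after Benjamini-Hochberg adjustment over the 3 KO groups, where 3 against 7 libraries can reach 0.00833. This test rested on 0, 1 and 1 members in the 3 Dnmt1 KO libraries. With barcodes thinned to 6000 UMIs the difference was -2.31, 2 of the 3 Dnmt1 KO libraries lay below every WT library, and the exact permutation test gave p = 0.0333 and adjusted p = 0.1. At 20000 UMIs it was -1.30, with p = 0.05 and adjusted p = 0.15 in the same exact permutation test. Without thinning the share was 0.759 to 2.73% (mean 2.05% ± 0.695, SD, n = 7) in WT and 0.825% ± 0.0371 (SD, n = 3) in Dnmt1 KO (exact permutation test, p = 0.0667, adjusted p = 0.2). In Dnmt3a KO the thinned share was 0.161%, 0.072%, 0.108% and 0.139% in embryos 1, 2, 13 and 14, and in Dnmt3b KO it was 0.229%, 0.0508% and 0.0837%. Both lay within the WT range (exact permutation test, adjusted p = 0.967 for each).

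The summed ratio of hindgut to foregut UMIs did not differ between genotypes beyond the spread of embryos, though in 2 Dnmt1 KO embryos, of 12 and 27 members, a larger share of members than in any WT embryo held neither kind of UMI. With members thinned to 10000 UMIs, 394 of 643 WT members held a UMI of a foregut gene only, 93 of a hindgut gene only, 100 of both and 56 of neither. In Dnmt1 KO these counts were 30, 7, 6 and 16 of 59, and the share with neither was 41.7%, 33.3% and 10.0% in the 3 embryos, against 5.71 to 13.6% over the WT libraries. The share with foregut UMIs only was 16.7%, 55.6% and 65.0%, against 48.3 to 73.7%, so that embryo 1 lay outside WT in both. These shares were not tested. In Dnmt3a KO they were 232, 74, 86 and 37 of 429, and in Dnmt3b KO 318, 80, 93 and 48 of 539, where the 46 barcodes found as members in both libraries 1 and 2 enter from each. The log2 ratio of summed hindgut to foregut UMIs ran from -3.65 to 0.20 over the WT embryos and was -1.33, -3.25 and -2.14 in Dnmt1 KO, all inside that range. Dnmt1 KO differed from WT by -0.55, Dnmt3a KO by 0.61 and Dnmt3b KO by -0.48 (exact permutation test over libraries, adjusted p = 0.583 for each).

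**Figure D1:**
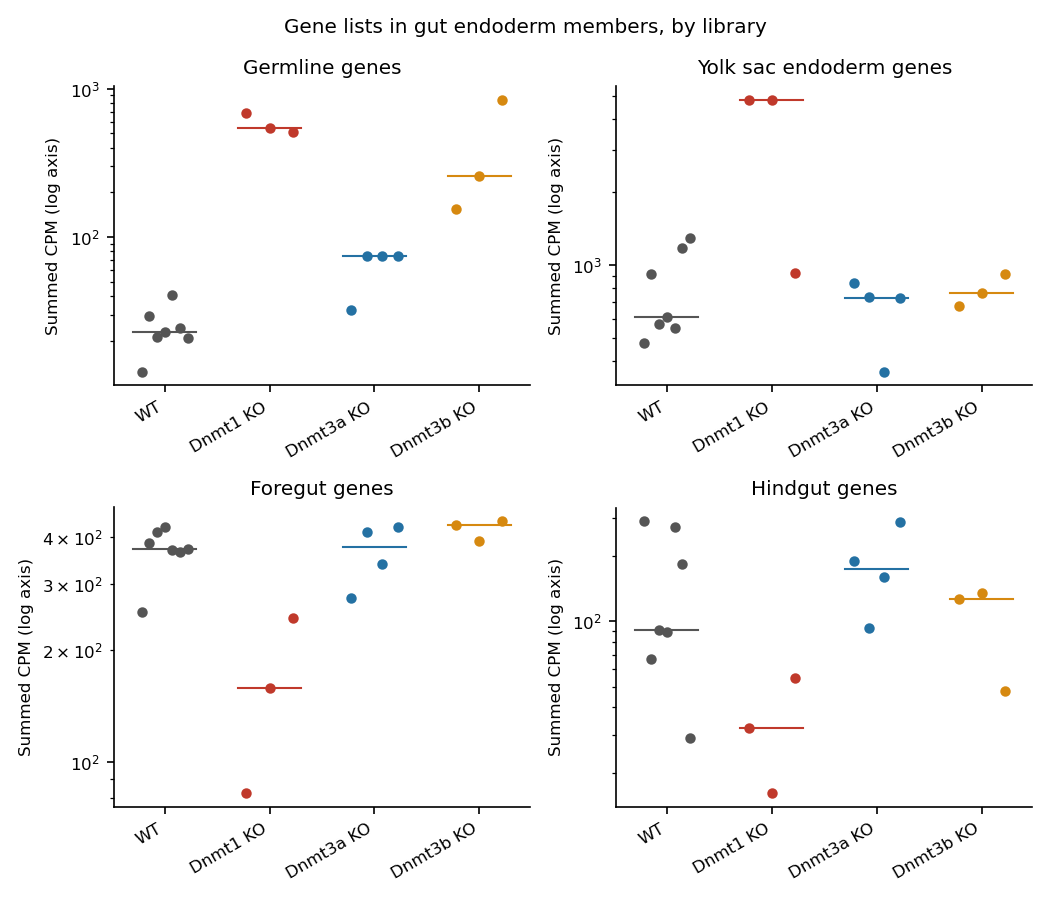
Summed level of 4 gene lists in the gut endoderm members of each library, in CPM on a log axis, with 1 point for each of 17 libraries by group and a line at the group's median. The germline sum lies above every WT library in all 3 Dnmt1 KO (511 to 690 CPM) and all 3 Dnmt3b KO libraries, the yolk sac sum of Dnmt1 KO runs from 929 to 4823 CPM against 478 to 1289 in WT, and the foregut sum is lower in Dnmt1 KO (82.7 to 244 CPM) than in WT (253 to 426).

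For the comparisons of levels, the UMIs of all members of a library were summed, the 10 genes of the rule were left out, and 11995 genes were tested with edgeR's quasi-likelihood test in 1 model of the 4 groups. A gene was called at a Benjamini-Hochberg adjusted p under 1% and an absolute log2 fold change of 1 or more, and levels are CPM over the genes other than those of the rule. The p-values measure the spread between embryos, and the 3 KO groups were set against the same 7 WT libraries, so their results share those controls. Named genes were in part picked for having no overlap between groups, so that trait is a description where it is given. Over all 11995 genes tested, 585 lay wholly above WT and 2044 below in Dnmt1 KO. In Dnmt3b KO these counts were 269 and 115.

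The targeted gene was lower in the members of 2 of the 3 KO groups. Dnmt1 was at 89.7, 101 and 118 CPM (lowest, median, highest) in WT and at 8.55, 14.5 and 12.1 CPM in Dnmt1 KO 1, 2 and 3, which is -2.90 ± 0.20 (SE) as a log2 fold change (adjusted p = 1.9e-08). Dnmt3a was at 23.2, 26.2 and 32.8 CPM in WT and at 9.48, 10.5, 8.59 and 12.3 CPM in Dnmt3a KO 1, 2, 13 and 14. All 4 were below every WT library, although the log2 fold change of -1.42 ± 0.31 did not pass the adjustment over all genes. Dnmt3b was at 36.1, 48.6 and 65.3 CPM in WT and at 51.2, 42.4 and 51.4 CPM in libraries 1+2, 11 and 12 labelled Dnmt3b KO, a difference of -0.08 ± 0.22 on the log2 scale (adjusted p = 0.96). The sources used here do not state which part of that gene was deleted, and 3′ tags from outside it check nothing, so the transcript neither bears the Dnmt3b label out nor goes against it. In Dnmt1 KO members Dnmt3b was itself higher, at 58, 86.9 and 168 CPM (log2 fold change 1.25 ± 0.22, adjusted p = 0.00047), with the first embryo inside the WT range, and the call was lost without Dnmt1 KO 3.

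Members of Dnmt1 KO differed from WT members in many genes. The marker check made in WT held less well for them. Sox2 was above the other barcodes in 0 of the 3 libraries, Krt19 in 1, and Nepn and Pyy in 2. Cpm, Spink1, Sox17 and Pax9, none of which chose the members, were above in all 3. The gut label is thus less certain for these members, and whether the calls reflect another mix of cells was not tested. In Dnmt1 KO 684 genes were called higher, 5.7% of those tested, and 448 lower, 3.73% (edgeR's quasi-likelihood test). These shares over all genes stand beside the counts given below for each list. The count moved with single embryos, from 467 without Dnmt1 KO 2 to 1735 without Dnmt1 KO 3. It was 597 without Dnmt1 KO 1 and 599 with Y-linked level as a covariate. With only members under 0.5% yolk sac genes it was 327, and 257 when Dnmt1 KO 1, with its 8 such members, was left out of that fit. Of the 1132 genes called with all members, 1028 were tested in that fit with the 3 embryos, 943 had the same direction and 263 were still called. The median log2 fold change over all genes tested was 0.0047.

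Germline genes were higher in the gut endoderm of all 3 Dnmt1 KO embryos. Of the 31 listed, which act in meiosis, in piRNA pathways that silence transposons or in sperm, 25 were abundant enough to test and 22 were called higher and none lower, with a median log2 fold change of 4.57. Among members under 0.5% yolk sac genes 18 of 22 tested were called higher, with the Y-linked covariate 22 of 25, and with possible doublets left out all 13 tested. The list was drawn up with earlier results of these data known, so its direction is not independent evidence. The summed germline level was 12.4 to 40.8 CPM in WT and 511 to 690 CPM in Dnmt1 KO, with no overlap.

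Rpl39l, a ribosomal protein gene of the testis, was at 0, 0.886 and 3.86 CPM (lowest, median, highest) in WT and at 179, 143 and 167 CPM in Dnmt1 KO 1, 2 and 3. All 3 KO embryos lay far above every WT embryo (log2 fold change 6.70 ± 0.48, adjusted p = 2.7e-08). Tuba3a, a testis tubulin, was at 0, 0 and 2.35 CPM in WT and at 59.9, 42.4 and 30.8 CPM in Dnmt1 KO (log2 fold change 8.15 ± 0.72, adjusted p = 6.6e-07), but Tuba3a and Tuba3b are near-identical copies and the split of reads between them is uncertain. Slc25a31, the germline ADP/ATP carrier, was at 0.886, 1.35 and 3.92 CPM in WT and rose to 36.1, 17.2 and 28.4 CPM (log2 fold change 4.15 ± 0.41, adjusted p = 1.9e-06). The RNA helicase gene Ddx4 was at 0.443, 1.22 and 3.95 CPM and rose to 27.6, 29.5 and 15.1 CPM (log2 fold change 4.04 ± 0.46, adjusted p = 8.8e-06). For Dazl, an RNA-binding protein of germ cells, the WT libraries were at 0, 0 and 0.368 CPM and the KO embryos at 26.6, 22.5 and 14.5 CPM.

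Further germline genes followed the same order. Tex19.1, which restrains retrotransposons, went from 1.02, 1.87 and 9.4 CPM in WT to 58.9, 74.1 and 32 CPM, and the piRNA factor Asz1 from 0, 0 and 0.784 CPM to 17.1, 19.9 and 17.5 CPM. The meiotic chaperone Fkbp6 was at 0, 1.02 and 3.12 CPM in WT and at 49.4, 48.8 and 26.6 CPM in Dnmt1 KO (log2 fold change 5.15 ± 0.47). The groups did not overlap for any of these 3 genes. Rhox13, Tex13b and Rpl10l had no UMI in the 7 WT libraries, and against a floor of 3 counts over the group they were at least 345-fold, 236-fold and 146-fold higher in Dnmt1 KO. Mnd1, which acts in meiotic strand exchange and is also used by dividing cells, rose from a WT range of 15.7 to 24.2 CPM to 162, 123 and 90.5 CPM (log2 fold change 2.74 ± 0.17, adjusted p = 3e-09).

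**Figure D2:**
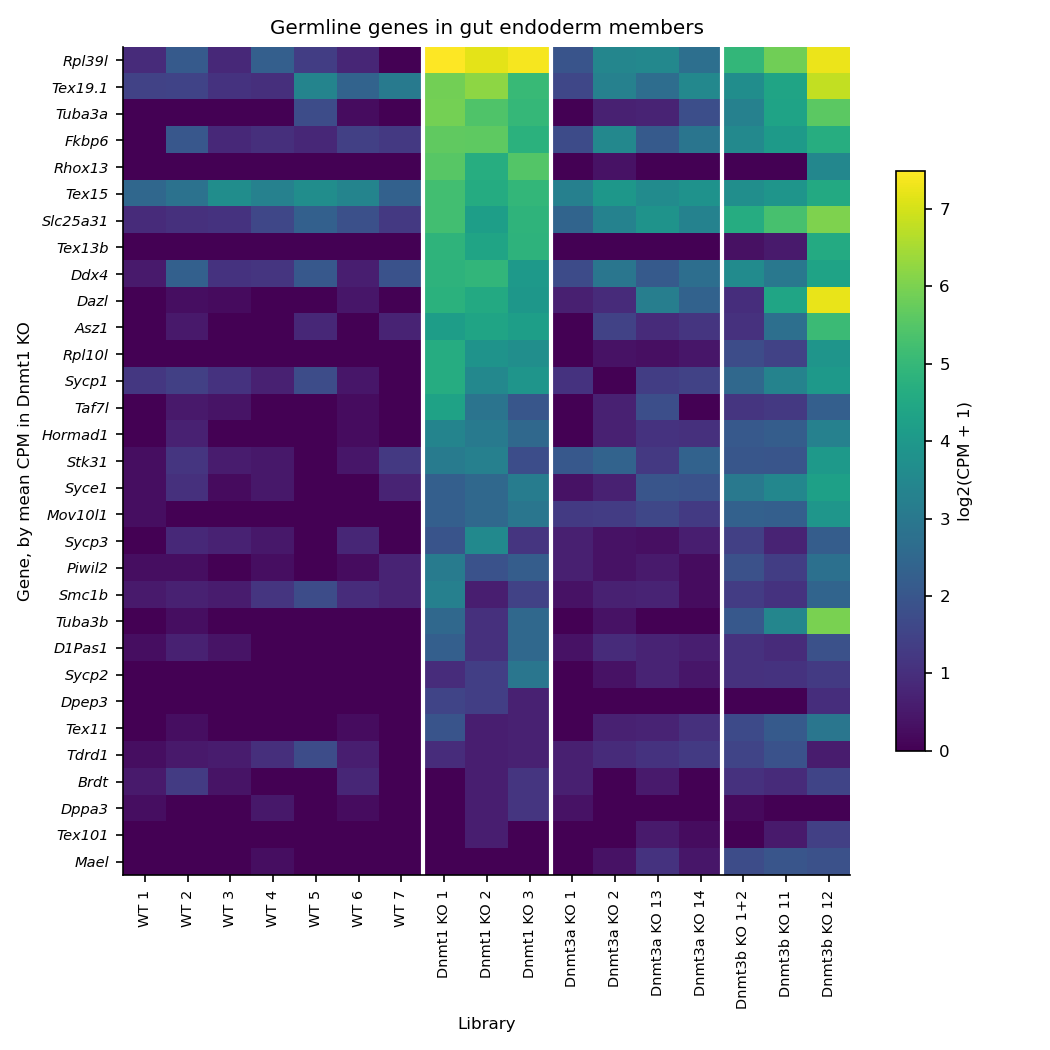
Level of 31 germline genes in the gut endoderm members of the 17 libraries, as log2(CPM + 1), with libraries grouped by genotype and genes ordered by their mean CPM in Dnmt1 KO. The Dnmt1 KO columns are filled for most genes, the Dnmt3b KO columns for many and most strongly in embryo 12, and the WT and Dnmt3a KO columns are near 0 for most rows.

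The promoters of 3 germline genes called in both Dnmt1 KO and Dnmt3b KO are shown because CpG is the site that these enzymes methylate. The 250 bases before the start of each gene were read from RefSeq on GRCm38.p6, with each CG in capitals. Methylation was not measured in these cells. Rpl39l lies on the plus strand with the window chr16:10169978-10170227, Slc25a31 on the plus strand with chr3:40708621-40708870 and Tuba3a on the minus strand with chr6:125286082-125286331.
Rpl39l: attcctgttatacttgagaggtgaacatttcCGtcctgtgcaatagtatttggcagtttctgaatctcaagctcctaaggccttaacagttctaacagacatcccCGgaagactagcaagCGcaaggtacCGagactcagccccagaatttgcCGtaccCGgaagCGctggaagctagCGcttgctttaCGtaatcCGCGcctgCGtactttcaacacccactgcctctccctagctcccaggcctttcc
Slc25a31: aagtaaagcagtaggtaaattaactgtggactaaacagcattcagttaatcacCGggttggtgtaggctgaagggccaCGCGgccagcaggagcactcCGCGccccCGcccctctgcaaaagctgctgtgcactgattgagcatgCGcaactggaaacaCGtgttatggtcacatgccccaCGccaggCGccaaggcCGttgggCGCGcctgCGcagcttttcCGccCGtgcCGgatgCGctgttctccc
Tuba3a: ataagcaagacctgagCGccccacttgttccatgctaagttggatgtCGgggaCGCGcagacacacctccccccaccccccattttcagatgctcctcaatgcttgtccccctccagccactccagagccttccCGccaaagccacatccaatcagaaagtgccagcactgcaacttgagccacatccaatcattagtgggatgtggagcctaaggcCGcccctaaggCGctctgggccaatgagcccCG

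The Rpl39l window holds 12 CG, the Slc25a31 window 18 and the Tuba3a window 8, and 33.47%, 21.67% and 42.98% of all RefSeq promoter windows of this length hold as many or more. CG reads the same on both strands. Of 24 germline genes called higher in Dnmt1 KO or Dnmt3b KO, 21 had a window in the RefSeq table, with a median of 15 CG and a range of 4 to 31. The median was 16 over the 9335 tested genes with a window and 6 over all 32817 windows. It was 11 for the genes called higher in Dnmt1 KO and 16 for those called lower. No test was made on these counts.

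Imprinted genes moved in both directions in Dnmt1 KO. Of 32 listed 29 were tested, 6 were called higher and 6 lower, and the median log2 fold change was 0.11. Among members under 0.5% yolk sac genes 5 were higher and 6 lower, and without Dnmt1 KO 3 the lower calls were 11. Grb10, a growth-restraining adaptor of the insulin receptor, was at 260, 353 and 428 CPM in WT and at 0, 1.61 and 7.85 CPM in Dnmt1 KO 1, 2 and 3 (log2 fold change -6.41 ± 0.36, adjusted p = 1.4e-09). The cell cycle inhibitor Cdkn1c was at 523, 820 and 1463 CPM in WT and fell to 52.3, 13.4 and 6.64 CPM (log2 fold change -5.23 ± 0.51, adjusted p = 1.9e-06). Igf2r, the receptor that clears IGF2, went from 74.7, 98 and 116 CPM to 19, 16.6 and 26.6 CPM (log2 fold change -2.05 ± 0.18, adjusted p = 4.8e-07). For all 3 genes the lowest WT embryo was above the highest KO embryo.

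In the H19 and Dlk1 domains neighbouring genes went in opposite directions. H19 was at 333, 559 and 704 CPM in WT and at 1380.4, 1378 and 1258 CPM in Dnmt1 KO (log2 fold change 1.52 ± 0.20, adjusted p = 3.8e-05), a call that was lost among members under 0.5% yolk sac genes. Its neighbour Igf2, a fetal growth factor, was at 4.71, 8.62 and 11 CPM in WT with no UMI in Dnmt1 KO, at least 13.2-fold lower. In the Dlk1 domain the non-coding RNA gene Meg3 rose from 391.9, 485 and 669 CPM to 818, 1219.8 and 1137 CPM (log2 fold change 1.21 ± 0.14) and Mirg from 15.5, 19.5 and 23.9 CPM to 55.1, 64.9 and 49.5 CPM (log2 fold change 1.73 ± 0.16). Dlk1 itself, a Notch-like ligand, went from 20, 53.8 and 95.9 CPM to 7.6, 9.12 and 3.02 CPM (log2 fold change -2.87 ± 0.51, adjusted p = 0.00051). The retrotransposon-derived gene Peg10 rose from 71.3, 108 and 128 CPM to 485, 488 and 242 CPM (log2 fold change 2.11 ± 0.19, adjusted p = 7.8e-07), and its neighbour Sgce was also positive, at 0.90, short of the fold threshold. Inpp5f at 1.77 and Mcts2 at 1.19 on the log2 scale completed the higher genes, and Zim1, at 8.1 to 19.3 CPM in WT and 0.95, 0 and 0 CPM in Dnmt1 KO, the lower ones.

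**Figure D3:**
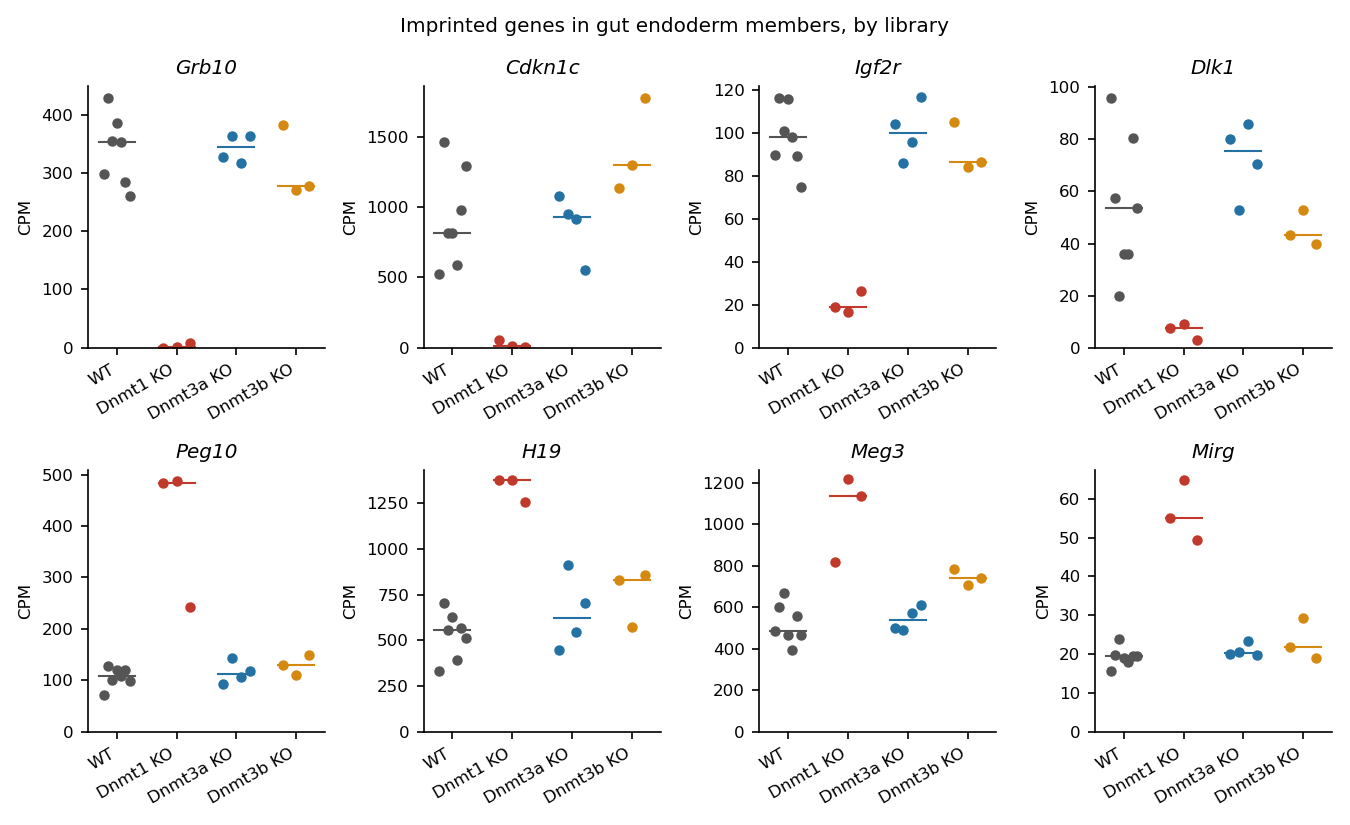
Level in CPM of 8 imprinted genes in the gut endoderm members of each library, with 1 point per library by group. In Dnmt1 KO the points for Grb10, Cdkn1c, Igf2r and Dlk1 lie below all WT points and those for Peg10, H19, Meg3 and Mirg above them.

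Among the markers of gut endoderm itself, Dnmt1 KO members were unevenly changed. Of 10 gut markers 3 were called higher and 2 lower, against 4 and 2 among members under 0.5% yolk sac genes. Nepn, a secreted proteoglycan gene of the foregut and midgut, was at 87.5, 219 and 758 CPM in WT and at 0, 0.537 and 1.21 CPM in Dnmt1 KO, where it rested on 3 UMIs. Pyy, which encodes a gut peptide hormone, fell from 94.8, 168 and 237 CPM to 0, 18.8 and 15.1 CPM (log2 fold change -3.65 ± 0.50, adjusted p = 5.1e-05). The neuropeptide gene Trh rose from 3.99, 54.6 and 97.2 CPM to 327, 384 and 713 CPM (log2 fold change 3.38 ± 0.56, adjusted p = 0.00028). Cer1, a Nodal and BMP antagonist that is made by early anterior endoderm, rose from 0, 0.443 and 1.29 CPM to 9.5, 11.3 and 35 CPM (log2 fold change 5.22 ± 0.57, adjusted p = 5e-06). None of these 4 genes overlapped between the groups. The third higher marker, the protease inhibitor Spink1, went from 933, 1977 and 2335 CPM to 3494, 5985 and 5548 CPM (log2 fold change 1.61 ± 0.30), and its call was lost without Dnmt1 KO 2.

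Epithelial genes had calls on the lower side only. Of 20 epithelial genes none was called higher and 2 lower, with a median log2 fold change of -0.01, and among members under 0.5% yolk sac genes 1, Krt19, was called lower. Krt19, a keratin of simple epithelia, was at 91.5, 191 and 363 CPM in WT and at 20, 5.9 and 12.7 CPM in Dnmt1 KO (log2 fold change -4.01 ± 0.43, adjusted p = 4.6e-06). Krt7 was called lower at -1.70 with overlapping groups, a call that was lost without Dnmt1 KO 1, while Krt8 and Krt18, the main keratin pair of early embryonic epithelia, were at -0.30 and -0.07 and Cdh1 (E-cadherin) at 0.55. Of 12 endoderm transcription factors 2 were called higher, Hnf4a and Elf3. Hnf4a, which is also a regulator of yolk sac endoderm, went from 0.784, 4.04 and 8.28 CPM to 26.6, 44 and 10.9 CPM (log2 fold change 2.73 ± 0.42), and neither call held among members under 0.5% yolk sac genes.

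Of the foregut factors 5 were lower in Dnmt1 KO, though of these only Sox2 was also called among members under 0.5% yolk sac genes, with the Y-linked covariate, without Dnmt1 KO 1 and without Dnmt1 KO 2. No other of the 14 tested was called, with a median log2 fold change of -1.87, and 7 lay wholly below WT, as did 17% of all genes tested. Sox2, which specifies the anterior gut tube, was at 52.4, 61.1 and 84.8 CPM in WT and at 0.95, 2.68 and 22.3 CPM in Dnmt1 KO 1, 2 and 3 (log2 fold change -2.60 ± 0.42, adjusted p = 0.00019). Nkx2-3, a homeobox gene of the pharynx and gut, fell from 18.6, 27.6 and 44.9 CPM to 0.95, 5.37 and 7.85 CPM (log2 fold change -2.43, adjusted p = 0.0012). Pax1, a gene of the pharyngeal pouches, was at 2.02, 4.05 and 8.62 CPM in WT with no UMI in Dnmt1 KO, at least 6.54-fold lower. Nkx2-5 and Tbx1, both also expressed in cardiopharyngeal mesoderm, were called lower at log2 fold changes of -3.20 and -2.57. Pax9, Isl1 and Otx2 were not called and ranged from -0.73 to 0.30. The count of lower calls was 1 (Sox2) among members under 0.5% yolk sac genes, 1 with the Y-linked covariate, 2 without Dnmt1 KO 1 and 1 without Dnmt1 KO 2, and the highest KO value of Sox2 was in embryo 3, which had the fewest yolk sac transcripts.

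Posterior genes were low in WT and rested on few or no UMIs in the 59 Dnmt1 KO members. Of 14 hindgut genes tested 2 were called lower, Hoxb6 and Hoxb9, and the median log2 fold change was -3.07. Hoxb6 was at 2.69, 5.19 and 11.8 CPM in WT and at 0, 0 and 1.81 CPM in Dnmt1 KO, and Hoxb9 at 2.02, 4.26 and 13.7 CPM and at 0, 0 and 0.604 CPM, so that the KO levels rested on 3 UMIs and 1 UMI. Neither was called among members under 0.5% yolk sac genes with the Y-linked covariate or without Dnmt1 KO 1, and DESeq2 called 7 of the list. Cdx2, a regulator of hindgut identity, was at 7.4, 30.1 and 82.3 CPM in WT and at 23.8, 12.3 and 16.3 CPM in Dnmt1 KO, inside the WT range.

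Of 9 Hedgehog genes tested 2 were called lower in Dnmt1 KO, the ligand gene Shh and the receptor gene Ptch1, and none higher. Shh, which the gut epithelium secretes to the mesenchyme and which the notochord also makes, was at 24.2, 52.4 and 103 CPM in WT and at 0.95, 1.61 and 7.85 CPM in Dnmt1 KO (log2 fold change -3.80 ± 0.59, adjusted p = 0.00015). Ihh, the other ligand of the epithelium, was at 18.4, 28.9 and 46.2 CPM and at 34.2, 33.8 and 12.7 CPM, with no call (log2 difference -0.09). The receptor and target gene Ptch1 fell from 110, 143 and 213 CPM to 45.6, 39.7 and 83.9 CPM (log2 fold change -1.19 ± 0.25, adjusted p = 0.0019). The Gli effectors were not called. Shh was called among members under 0.5% yolk sac genes, with the Y-linked covariate and without Dnmt1 KO 1 or 2, and Ptch1 in none of these.

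Genes of other pathways were called in both directions, where 5.7% of all genes tested were called higher and 3.73% lower. Of 14 FGF genes tested 1 was higher and 3 lower. The receptor gene Fgfr2 fell from 30.3, 33.1 and 38.4 CPM to 6.65, 10.2 and 16.9 CPM (log2 fold change -1.33, adjusted p = 0.00018) while Fgfr3 rose from 3.32, 5.89 and 6.44 CPM to 13.3, 17.7 and 13.3 CPM (log2 fold change 1.66, adjusted p = 5.6e-05), both with no overlap. The feedback inhibitors Spry1 and Spry2 were called lower. Of 14 WNT genes 1 was called lower, the ligand Wnt5a (-1.64). Of 15 BMP and Nodal genes Cer1 was higher and Bmp7 lower (-1.12), and of 10 retinoic acid genes Rdh10, which makes retinal, was higher (1.59) and the receptor Rarg lower (-1.29). Among members under 0.5% yolk sac genes Cer1 kept its call, no FGF, WNT or retinoic acid gene was called, and Rdh10 had the opposite sign, at -0.47. The calls of Wnt5a, Bmp7, Rdh10 and Rarg were also lost without Dnmt1 KO 1.

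Yolk sac endoderm transcripts were higher in Dnmt1 KO members although the rule had limited 5 of them, whose own levels are given above. Of 14 further yolk sac genes tested 13 were called higher, with a median log2 fold change of 2.46, but only Dab2 and Pla2g12b lay wholly above WT, as did 4.88% of all genes tested. Their summed level was 478, 611 and 1289 CPM in WT (lowest, median, highest) and 929 to 4823 CPM in Dnmt1 KO, with embryo 3 the lowest. Cubn, an endocytic receptor of absorptive epithelia, was at 1.57, 14 and 70.7 CPM in WT and at 358, 363 and 42.9 CPM in Dnmt1 KO 1, 2 and 3, and the apolipoprotein gene Apom at 80.2, 115 and 367 CPM and at 1328, 1333 and 238 CPM. In both, embryo 3 lay inside the WT range. Pla2g12b, which is needed for lipoprotein secretion, was at 5.49, 6.45 and 26.9 CPM in WT and at 145, 133 and 49.5 CPM in Dnmt1 KO (log2 fold change 3.26 ± 0.41, adjusted p = 2.1e-05) and kept its call in every alternative. Among members under 0.5% yolk sac genes 2 of 13 tested were called higher, with a median of 0.50, and Lrp2, Trf, Fgb and Fgg changed sign to -1.58, -0.67, -0.11 and -1.34. With the Y-linked covariate 2 were called. The count was 7 without Dnmt1 KO 1, 4 without Dnmt1 KO 2 and 15 without Dnmt1 KO 3. What part these transcripts had in the other Dnmt1 KO results was not tested beyond the values given for members under 0.5%.

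**Figure D4:**
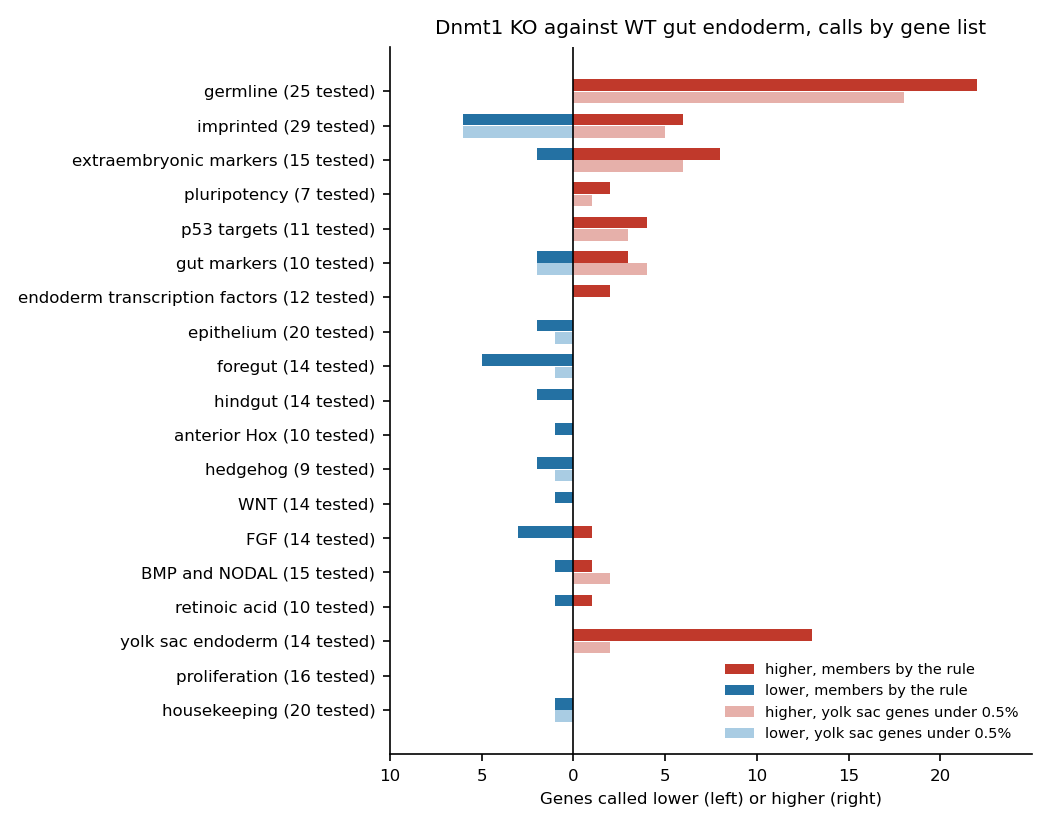
Number of genes called higher (right) and lower (left) in Dnmt1 KO against WT gut endoderm in each gene list, with dark bars for all members by the rule and pale bars for members with yolk sac genes under 0.5% of UMIs in the same 3 embryos. Germline calls fall from 22 to 18 and yolk sac calls from 13 to 2, while foregut calls fall from 5 lower to 1.

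Of 15 tested genes that normally mark extraembryonic lineages 8 were called higher and 2 lower, the lower ones being Wfdc2 (-1.56) and Gata3 (-1.11). Among members under 0.5% yolk sac genes 6 were higher and none lower, and without Dnmt1 KO 1 5 were higher and 1 lower. The X-linked homeobox gene Rhox5 was at 49.4, 97.7 and 181 CPM in WT and at 696, 659 and 185 CPM in Dnmt1 KO (log2 fold change 2.46), and Trap1a, also X-linked, at 39.6, 70.5 and 161 CPM and at 501, 350 and 178 CPM (log2 fold change 2.17). Embryo 3 was just above the highest WT embryo in both. Apoe, a lipid carrier, rose from 312, 556 and 1052 CPM to 3009.7, 4213 and 1674 CPM (log2 fold change 2.50 ± 0.36, adjusted p = 7.5e-05). Xlr3a, Xlr3b and Xlr4b rose by 2.26, 1.82 and 2.65 on the log2 scale, with uncertain values because these X-linked genes have near-identical copies. Rhox6 and Rhox9, at 2.32 and 4.53, belong to the same X-linked cluster as Rhox5. Of the 8 higher genes all but Apoe are thus X-linked, and sex was nearly confounded with the Dnmt1 KO group. The values given here do not tell sex from genotype for these genes.

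Targets of p53 were in part raised. Of 11 tested 4 were called higher and none lower, with a median log2 fold change of 0.53, and 3 among members under 0.5% yolk sac genes. Ccng1 was at 7.89, 12.5 and 17.7 CPM in WT and at 71.3, 41.3 and 44.7 CPM in Dnmt1 KO (log2 fold change 2.17 ± 0.35, adjusted p = 0.00022). Trp53inp1 rose by 1.85, Sesn2 by 1.82 and Phlda3 by 1.81 on the log2 scale. The cell cycle inhibitor Cdkn1a, at 1.01, was short of the threshold for p (adjusted p = 0.010), and Mdm2 was at 0.02. Of 4 interferon-response genes tested 1 was higher, Bst2, which holds enveloped virus particles at the cell surface, from 13.1, 20.4 and 34.5 CPM to 172, 135 and 88.7 CPM (log2 fold change 2.66 ± 0.31, adjusted p = 9.7e-06). Of 16 proliferation genes none was called by edgeR or DESeq2, with 8 at an unadjusted p under 0.05, as were 4650 of the 11995 genes tested, and of 20 housekeeping genes 1 was called lower, with medians of -0.03 and 0.06.

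The strongest calls outside these lists included Noct, which encodes a phosphatase of NADP(H), and genes with almost no UMIs in WT. Noct was at 11, 12.6 and 17.5 CPM in WT and at 140, 120 and 84.5 CPM in Dnmt1 KO (log2 fold change 3.32 ± 0.15, adjusted p = 3.4e-11). Trim5 had a highest WT value of 0.208 CPM against 33.3, 53.7 and 51.3 CPM, a ratio of 689 (95% counting interval 189 to 5726), and Pkd1l2, a polycystin family gene, 0.368 CPM against 99.8, 38.1 and 24.1 CPM, a ratio of 677 (185 to 5623). Clvs1 went from at most 0.406 CPM to 13.3, 17.7 and 20.5 CPM. These 4 genes kept their calls among members under 0.5% yolk sac genes. On the lower side, the IGF-binding protein genes Igfbp5 and Igfbp2 fell from 306, 462 and 590 CPM to 55.1, 60.1 and 45.3 CPM (log2 fold change -2.91 ± 0.27, adjusted p = 9.7e-07) and from 174, 233 and 372 CPM to 54.2, 34.3 and 66.4 CPM (-2.16 ± 0.23). Fstl1, which encodes a secreted glycoprotein, fell by 1.92, the microfibril gene Mfap2 by 2.68 and Zc3hav1l by 1.63 on the log2 scale.

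Markers of other cell types that could share a barcode with gut cells were measured in the same members. The summed erythroid level was 21.2, 745 and 2658 CPM in WT (lowest, median, highest), 12.9 to 14.3 CPM for Dnmt1 KO and 810 to 1196 CPM over the other KO libraries. The summed cardiac level was 35.0, 42.4 and 419.7 CPM in WT and 2.85 to 248 CPM for Dnmt1 KO, where 1 of 6 cardiac genes was called lower, Nkx2-5. The part of these cells in the results was not tested beyond the fits without possible doublets. In the notochord list only Shh was called, and in the neural list only Nkx6-1, which had no UMI in Dnmt1 KO and was at least 25.4-fold lower. In the mesoderm list Pdgfra was called higher, from 2.69, 8.64 and 14.5 CPM to 59.9, 34.3 and 22.3 CPM (log2 fold change 2.19), and it lost its call among members under 0.5% yolk sac genes. Of 8 erythroid genes 2 were called lower, calls that were lost without Dnmt1 KO 1, with Hba-x at 13.3, 369 and 1330 CPM in WT and at 7.6, 5.37 and 6.64 CPM in Dnmt1 KO. Globin thus took up to 0.263% of the UMIs of WT members and 0.0012 to 0.0013% in Dnmt1 KO. No surface ectoderm or endothelial gene was called by edgeR or DESeq2, with 1 and 0 at an unadjusted p under 0.05. Dnd1, a germ cell gene, was called higher in the list of primordial germ cell markers, 2 of which were tested, but in only 10 of 24 alternatives and not when any 1 Dnmt1 KO embryo was left out or with the Y-linked covariate.

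In gut endoderm of embryos labelled Dnmt3b KO the calls were almost wholly on the higher side. Of the genes tested 53 were called higher, 0.442%, and 1 lower, 0.00834%, and the median over all genes was -0.0193. The count was 33 without Dnmt3b KO 12 and 67 without Dnmt3b KO 1+2, and 23 with all libraries thinned to 1 depth. Of 25 germline genes tested 18 were called higher and none lower, with a median log2 fold change of 4.90, or 4.66 with genes absent in WT set at their bound, and 13 were called without embryo 12 and 8 of 13 tested with possible doublets left out.

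Rhox4e, an X-linked homeobox gene of the reproductive cluster, was at 0, 0.208 and 0.552 CPM in WT (lowest, median, highest) and at 37.1, 42.6 and 85 CPM in Dnmt3b KO 1+2, 11 and 12. It led the calls (log2 fold change 7.44 ± 0.46, adjusted p = 1.5e-08), together with Rhox4d at 0, 0.368 and 1.11 CPM and at 17.7, 35.2 and 109 CPM (6.99 ± 0.57). The Rhox4 genes are near-identical copies, so their separate values are uncertain. Rpl39l, whose promoter is given above, was at 30.1, 57.7 and 155 CPM in Dnmt3b KO (log2 fold change 5.48 ± 0.48, adjusted p = 1.2e-06). Slc25a31 was at 23.9, 38.4 and 65.3 CPM (4.63 ± 0.36, adjusted p = 3.3e-07) and Tuba3a at 8.8, 19.3 and 47.5 CPM (7.13 ± 0.72). Every Dnmt3b KO library was above every WT library for these 5 genes, which was in part a condition of naming them. Embryo 12 was the highest in each.

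Syce1, a central element protein of the synaptonemal complex, was at 7.15, 10.1 and 18 CPM in Dnmt3b KO (log2 fold change 4.91 ± 0.55). Tex12, of the same structure, had at most 0.221 CPM in WT and 3.85, 4.04 and 12.2 CPM in Dnmt3b KO, a ratio of 175 (95% counting interval 30.6 to 6976). The piRNA helicase gene Mov10l1 was at 3.99, 3.81 and 14.2 CPM, a ratio of 189 (33.2 to 7545), and AU022751, an X-linked gene, at 8.25, 11.7 and 17.8 CPM, a ratio of 168 (45.8 to 1394). Fkbp6 was at 10.5, 15.9 and 24.2 CPM (log2 fold change 3.64) and was called in all alternatives. The groups did not overlap for these genes either, again in part a condition of naming them.

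Embryo 12 stood apart for several germ cell regulators. Its Dnmt3a transcript, at 4.3 CPM, was also below every Dnmt3a KO library, so its levels cannot be credited to the loss of Dnmt3b alone. In Dnmt3b KO 11 the Dnmt3a transcript was at 16.6 CPM, below every WT library, so the same limit holds there. Dazl was at 0.963, 20.2 and 150 CPM in Dnmt3b KO 1+2, 11 and 12, Tex19.1 at 11.7, 19.7 and 110 CPM and Asz1 at 1.1, 5.61 and 33.1 CPM. The calls of Tex19.1, Asz1, Ddx4, Sycp1, Stk31, Rhox6 and the interferon-induced gene Ifitm3 were lost without embryo 12. Over all genes, those of the rule included, the summed germline level in the 3 libraries was 155, 256 and 841 CPM. Every one of them was above the WT range, and embryo 12 lay above all Dnmt1 KO embryos. The 1 gene called lower was Ahcy, which clears the S-adenosylhomocysteine left by methyl transfer, at 12.9, 15.7 and 26.2 CPM in WT and 8.11, 4.26 and 7.68 CPM in Dnmt3b KO (log2 fold change -1.31 ± 0.24, adjusted p = 0.0058), and it was called in 17 of 28 alternatives. Ahcy is also a neighbour of the targeted gene Dnmt3b, and the part of the altered locus in its level was not tested.

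No other list moved as germline genes did in Dnmt3b KO. Of the extraembryonic list 2 were called higher, Rhox6 (22.6, 20.2 and 137 CPM, log2 fold change 3.12) and Rhox9 (6.74, 5.39 and 66.7 CPM, 5.67), and of the interferon list 1. None of the imprinted, gut marker, endoderm, epithelial, foregut, hindgut, Hedgehog, WNT, FGF, BMP, retinoic acid, p53 or yolk sac genes was called by edgeR or DESeq2.

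In Dnmt3a KO gut endoderm 1 gene was called. Tex12 was at most at 0.221 CPM in WT and at 2.01, 2.71, 2.71 and 1.96 CPM in Dnmt3a KO 1, 2, 13 and 14, a ratio of 66.3 (95% counting interval 11.2 to 2687, adjusted p = 0.0055 by edgeR). It made up the 0.00834% of tested genes called higher, and 0% were called lower, beside 574 genes at an unadjusted p under 0.05 and 12 calls by DESeq2. Tex12 was called in 12 of 25 alternatives, and leaving out Dnmt3a KO 1, 2 or 13, or any of WT 1, 3, 4, 5 and 6, left no call at all, while 10 genes were called without Dnmt3b KO 12, the targeted gene Dnmt3a among them.

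The listed germline genes had mostly positive differences in Dnmt3a KO, without a call. Tex12, the 1 gene called, belongs to the synaptonemal complex of meiosis but is not on that list. None of 25 tested was called by edgeR, 12 were at an unadjusted p under 0.05, 3 were called by DESeq2, 2 were called with the Y-linked covariate, 2 without Dnmt3b KO 12 and 1 with possible doublets left out, and 22 had a positive log2 difference with a median of 1.99 (1.97 with genes absent in WT at their bound), against -0.01 for all genes. The 4 germline genes that lay wholly above WT compare with 0.592% of all tested genes that did so. The summed germline level was 32.2 to 75.0 CPM in Dnmt3a KO against 12.4 to 40.8 CPM in WT, with an overlap. With all members no gene of any other list was called by edgeR, and DESeq2 called 1 foregut gene higher and 1 gene of the methylation machinery lower. With possible doublets left out, which removed members with globin UMIs unevenly between libraries, edgeR called 4 of 5 cardiac genes higher, with a median log2 fold change of 4.74, and all 4 Y-linked genes.

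Germline UMIs were also counted member by member. After thinning to 10000 UMIs, 108 of 643 WT members (16.8%) held any germline UMI, against all 59 of Dnmt1 KO, while Dnmt3a KO had 159 of 429 (37.1%) and Dnmt3b KO 439 of 539 (81.4%), with 319 of 419 (76.1%) without embryo 12. The 46 barcodes shared by Dnmt3b KO 1 and 2 enter these counts from each library. Without thinning the shares were 41.2%, 100%, 65.3% and 89.7%. Members with 3 or more germline genes made up 0.311%, 78.0%, 4.90% and 34.7%, and 18.6% of Dnmt3b KO members without embryo 12. Erythroid barcodes at the same depth held a germline UMI in 5.03% in WT, 40.3% in Dnmt3a KO and 66.8% in Dnmt3b KO, with only 4 such barcodes in Dnmt1 KO. In Dnmt3b KO 1, 2, 11 and 12 erythroid barcodes did so in 54.4%, 54.9%, 62.5% and 99.2%. Their median UMIs by library were 9558 to 43670 in WT and 12648 to 41623 in Dnmt3b KO before thinning. Erythroid cells carry the same null alleles, so they are no blank for these genes in the KO embryos, and the part of free RNA in these shares was not tested. In Dnmt3a KO the erythroid share with 3 or more germline genes was 0.997%, against the 4.90% of members. In Dnmt3b KO it was 20.8%, against the 34.7% of members, and both rested largely on embryo 12, at 72.7% and 90.8%. In libraries 1, 2 and 11 the erythroid share was 2.78%, 3.81% and 6.72%, against 15.4%, 17.6% and 23.8% of members. By gene, 7.46% of Dnmt3a KO members held a UMI of Slc25a31 and 5.59% one of Tex19.1, against 1.42% and 25.5% of the erythroid barcodes. In Dnmt3b KO 13.5% of members and 0.135% of erythroid barcodes held a UMI of Tuba3a. The other way went Dazl, with 13.7% of members and 17.4% of erythroid barcodes, and Tex19.1, with 21.7% and 37.7%. For Dazl, embryo 12 gave 61 of the 74 members and 231 of the 258 erythroid barcodes. Library 11 had the reverse order for Dazl, with 12 of 126 members and 10 of 253 erythroid barcodes. Libraries 1 and 2 held it in 1 of 162 and 0 of 131 members, and in 8 of 395 and 9 of 472 erythroid barcodes. For Rpl39l alone the share of members was 1.09% for WT and 71.2% for Dnmt1 KO, with 4.66% for Dnmt3a KO and 36.0% for Dnmt3b KO.

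The change in gut endoderm was compared with that in yolk sac endoderm of the same embryos, by the interaction of genotype and compartment in edgeR with the library as a block. Yolk sac endoderm was taken as the 9892 barcodes with 2% or more of UMIs in the 5 yolk sac genes, a cut chosen after the data were seen. In Dnmt1 KO the signed difference, the log2 change in gut minus that in yolk sac, was called positive for 632 genes, 4.88% of 12953 tested, and negative for 172, 1.33%, whichever compartment changed by more. The count fell to 250 without Dnmt1 KO 2 and 390 without Dnmt1 KO 1, and was 1276 without Dnmt1 KO 3. The genes that split most included yolk sac transcripts themselves. Cideb, a lipid droplet and lipoprotein gene, went from 1.76 CPM ± 1.2 to 21.6 ± 4.6 in gut and from 41.1 to 38.8 CPM in yolk sac (difference 3.97 ± 0.34, adjusted p = 3.4e-06), and 13 of 16 genes of the yolk sac list were called positive. The microvillus gene Vil1 went from 8.82 to 37.4 CPM in gut and from 87.1 to 61.7 CPM in yolk sac, a difference of 2.78. The compartments were divided by the share of UMIs in the 5 yolk sac genes, so the yolk sac side was held high in these in every genotype. Just inside the 2% limit were 16 of the 59 Dnmt1 KO gut members and 23 of the 670 in WT. For yolk sac transcripts the difference therefore cannot tell a change within gut cells from the place of the members below the cut. No fit of the difference was made on members lower in yolk sac genes. Igfbp2 and Igfbp5 had lower log2 changes in gut than in yolk sac, with differences of -2.90 and -2.39.

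Germline genes rose in both endoderms of Dnmt1 KO. In yolk sac endoderm alone 27 of 29 tested were called higher, with a median of 2.91, where 3.64% of all genes were. Of 26 tested for the difference, 9 were called positive and none negative, with a median difference of 2.07 against 0.03 for all genes. Of these 9, Rpl10l was called in 5, Dazl and Asz1 in 11, Ddx4 in 13 and Mov10l1 in 16 of the 17 fits that left out 1 library, and the other 4 in every one. Rpl39l rose by 6.70 in gut and 3.68 in yolk sac on the log2 scale, a difference of 3.12 ± 0.42 in the joint fit, and Tex19.1 differed by 3.09 ± 0.53 and Fkbp6 by 2.59. A larger log2 change in gut did not always mean a higher level in KO gut. Tex19.1 went from 3.83 to 55.0 CPM in gut and from 21.1 to 54.6 CPM in yolk sac. Rpl39l went from 1.60 to 163 CPM and from 9.38 to 111 CPM. In Dnmt1 KO Ddx4 was at 24.1 CPM in gut and 34.9 CPM in yolk sac, and Dazl at 21.2 and 4.25 CPM. The imprinted gene Phlda2, a placental growth restrainer, was at 311 CPM in WT and 208 CPM in Dnmt1 KO gut but went from 1080 to 79.4 CPM in yolk sac, a difference of 3.16 ± 0.46.

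In the other KO groups few genes differed between the endoderms. In Dnmt3b KO the difference was called positive for 0.054% and negative for 0.0154%, 9 genes in all, led by Rhox4e (difference 4.27 ± 0.53, adjusted p = 0.0014) and Slc25a31 (2.56 ± 0.33). The whole count fell to 0 without WT 3 and to 1 without Dnmt3b KO 11 or 12. Of 29 germline genes 23 were called higher in yolk sac endoderm of Dnmt3b KO, where 1.3% of all genes were, and the median difference was 1.95 with 1 call. In Dnmt3a KO 15 of 29 germline genes were called higher in yolk sac endoderm, with a median of 1.52 and 0.574% of all genes called higher, against 0 of 25 in gut, but no germline gene differed between the 2 compartments (edgeR, median difference 0.20). With yolk sac endoderm at 5% or more, only Dnmt3a KO could be tested and 3 genes differed, 0.0258%.

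**Figure D5:**
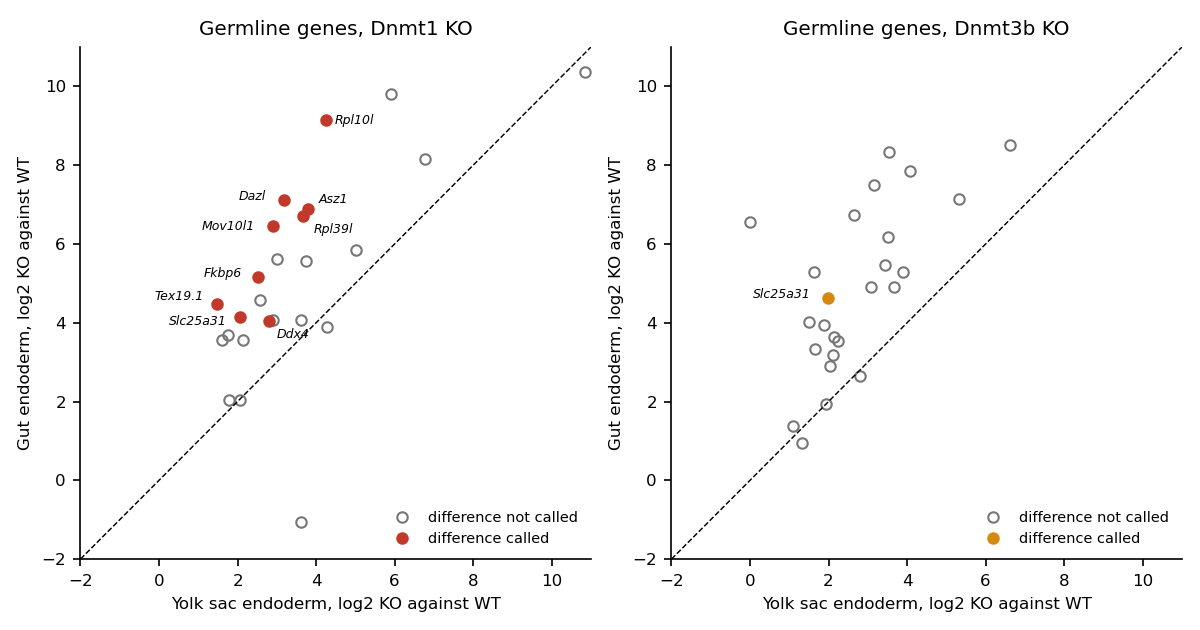
Log2 fold change of germline genes against WT in yolk sac endoderm (x axis) and gut endoderm (y axis), for Dnmt1 KO and Dnmt3b KO, with 1 point per gene, filled where the difference between the compartments was called and a dashed line at equal change. Most points lie above the line in both groups, with 9 filled in Dnmt1 KO and 1 in Dnmt3b KO.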

How the data were processed

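The authors aligned 10x 3′ v3 reads of single E8.5 embryos with Cell Ranger and deposited filtered UMI counts per gene and barcode. The file headers name version 3.1.0 in 17 libraries and 5.0.0 in 1, Dnmt3b KO 12. In 4 libraries (WT 1, Dnmt3a KO 1 and 13, Dnmt3b KO 11) the reads had been mapped to a joint human and mouse reference, and only mouse genes were used here, 31053 in all. Gene IDs were matched to GENCODE M21 annotation, and 31011 were found.

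Groups followed the labels. UMIs of the members were summed per library, libraries with 10 or more members entered, which was all 17, and the 10 genes of the rule were left out. Low genes were removed with filterByExpr, libraries were scaled by TMM and tested with edgeR 4.0.16 (glmQLFit and glmQLFTest, R 4.3.3), with DESeq2 1.42.0 as an alternative. Members with less than 0.5% of UMIs in yolk sac genes were also fitted alone, with a minimum of 5 members per library, since the minimum of 10 leaves out Dnmt1 KO 1. Doublets were not called. As an alternative, members with 10 or more globin UMIs, or among the top 5% of UMIs of their library, were left out. Shares and ratios were compared by exact permutation with scipy 1.17.1, with 0.01% or 1 UMI added before logs. Ratios of sparse genes carry 95% Clopper-Pearson intervals, which cover counting error only, and a count of 0 was bounded with 3 counts. A fitted fold change of a gene that is near 0 in WT depends on the prior count. The fits were tested on simulated data.

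Genes were named where they were targeted, belonged to a list and were called, or were among the 10 strongest by p in each direction with no overlap between groups, leaving out unnamed gene models. Some results that met this rule are not reported here. For yolk sac endoderm up to 4 genes in each direction were taken. The members and the gene lists were chosen with earlier results of these data known.

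Same-numbered libraries of different groups came from different embryos. Their deviations from the group means correlated at 0.0109, 0.1299 and 0.1708 for Dnmt1 KO and WT, so the numbers were not taken as pairs.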

Additional observations from a re-analysis of the deposited data

Results flagged for a closer look

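In 10 of the 66 groups of 4 to 10 libraries that were examined (15.2%), the highest or the lowest library stood away from the rest, where chance alone gives about 1 in 20. WT 7 had a share of gut endoderm barcodes of 0% after thinning, which stood apart from 0.0789 to 0.379% in the other WT libraries on the log2(percent + 0.01) scale. Dnmt3a KO 14 had 3.98% mitochondrial UMIs in its members, above the other 3 Dnmt3a KO libraries. The other cases were sparse genes. These were Pkd1l2 and AU022751 at 0.368 CPM each in WT 6, Tuba3a at 2.35 CPM in WT 5, Tex12 and Mov10l1 at 0.221 CPM each in WT 1, Tuba3b at 0.208 CPM in WT 2 and at 0.301 CPM in Dnmt3a KO 2, and Mov10l1 at 2.03 CPM in Dnmt3a KO 13.

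The change from WT differed between gut endoderm and yolk sac endoderm, by the interaction term in edgeR, with 804 genes for Dnmt1 KO, 4 for Dnmt3a KO and 9 for Dnmt3b KO when yolk sac endoderm was taken at 2% or more. The 4 genes in Dnmt3a KO were Itga6, H2-Q4, Ak4 and Ank3, with differences of 1.51, 1.89, 1.20 and 1.06 on the log2 scale (gut minus yolk sac). Their change from WT was 0.27, 0.33, 0.41 and 0.13 in gut, with no call, and -1.18, -1.49, -0.80 and -0.89 in yolk sac endoderm. The count was 1, Itga6, without Dnmt3a KO 13 or 14 or without WT 3, 4, 5 or 7, and H2-Q4, Ak4 and Ank3 were called in 10, 6 and 5 of the 17 fits that left out 1 library. With the cut at 5% the 3 genes in Dnmt3a KO were Lockd at -4.04, 1500009L16Rik at -2.50 and Hist1h2ae at 1.70.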

How the results depend on the processing

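The number of genes called in Dnmt1 KO gut endoderm (1132) was 599 with the Y-linked covariate, 595 with possible doublets left out, 327 with yolk sac genes under 0.5% of UMIs (257 at the minimum of 10 members, which leaves out Dnmt1 KO 1 with its 8 members) and 736 with libraries thinned to 1 depth, and 467 to 1735 when 1 library was left out. The 1 gene called in Dnmt3a KO became 12 with DESeq2, 6 with no low-count filter, 10 with the Y-linked covariate, 14 with possible doublets left out, and 0 with the reference as a covariate, with 25 or more members per library, or with yolk sac genes under 0.5%, and 0 to 4 when 1 library of either group was left out. The 54 of Dnmt3b KO became 86 with no filter, 83 with the Y-linked covariate, 33 without possible doublets and 23 when thinned, 33 to 60 when 1 embryo was left out and 67 without Dnmt3b KO 1+2. With the replicate block, on libraries that share numbers, Dnmt1 KO had 179 calls against 274 for the same libraries without the block, and Dnmt3a KO 0 against 0. The libraries share only a number, with pair correlations of 0.2827 for Dnmt3a KO and WT. For Dnmt3b KO no paired analysis was possible because Dnmt3b KO 1 and 2 are 1 library and share only that with WT.

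The share difference reversed sign in Dnmt3a KO from 0.34 to -0.43 without thinning, -0.45 at 6000 or more UMIs, -0.21 at 20000 or more and -0.21 without WT 7. In Dnmt3b KO it went from 0.16 to -0.092, -0.14 and -0.069 under the same 3 depths, -0.39 without WT 7 and -0.39 without Dnmt3b KO 1+2. Leaving out 1 library gave -2.39 to -1.10 in Dnmt1 KO, -0.21 to 0.67 in Dnmt3a KO and -0.39 to 0.60 in Dnmt3b KO. The hindgut to foregut ratio ran from -1.001 to -0.04, 0.28 to 0.96 and -0.80 to 0.046, the last without Dnmt3b KO 12, and was 0.18 in Dnmt1 KO as a difference of mean log2 CPM. None of these differences passed the test. With yolk sac genes under 0.5%, Rdh10 (-0.47), L1td1 (-1.03, from 1.02), Lrp2 (-1.58), Trf (-0.67), Fgb (-0.11) and Fgg (-1.34) were the named genes that reversed in Dnmt1 KO (without embryo 1, Rdh10 -0.56, L1td1 -1.06, Lrp2 -1.70, Trf -0.64 and Fgg -1.02), and Dnmt3b in Dnmt3b KO was 0.050 with the Y-linked covariate. The genes whose change differed from yolk sac endoderm at 5% in Dnmt3a KO were 5 with no filter and 5 to 11 when 1 library was left out. Cuts of 5% for the other KO groups and of 10% gave no value, since too few libraries had 10 such barcodes. The cause of these changes was not tested. In Dnmt1 KO 59 members gave 1064787 to 1885569 UMIs per library, so a gene of 1 CPM rests on a few UMIs.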

Other observations

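In the members of Dnmt3b KO 12, the library with the highest summed germline level (841 CPM over all genes), Dnmt3a was at 4.3 CPM, against 33.0 CPM in Dnmt3b KO 1+2, 16.6 CPM in Dnmt3b KO 11 and 23.2 to 32.8 CPM in the WT libraries. This was also below every Dnmt3a KO library, at 8.57 to 12.26 CPM over all genes. The library is labelled Dnmt3b KO only, and it is the library whose headers name another Cell Ranger version. Rhox13 and Tex13b, absent from WT members, were also raised in it. These values were seen after the comparison and were not tested.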
